A study of Mus musculus with 12 samples.

Results

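The genes described here are 10 members of the naive pluripotency network of mouse embryonic stem cells: Nanog, Esrrb, Tfcp2l1, Zfp42, Tbx3, Nr0b1, Nr5a2, Prdm14, Gbx2 and Tcl1. They were taken by symbol from a deposited table of 53819 genes, in which all 10 were found. The study sequenced messenger RNA of E14 cells, a standard mouse embryonic stem cell line grown in 2 dimensions, in 12 libraries. Of these, 3 came from untreated cells (control), 3 from cells given L-proline for 72 h, 3 from cells given the synthetic glucocorticoid budesonide for 72 h, and 3 from cells given proline and budesonide for 72 h (both). The labels give no dose, no vehicle, no culture medium and no time for the control cells. A difference from control in time in culture therefore cannot be told apart from treatment. Separate cultures for the replicates are not given either, so p-values reflect only how these libraries vary, and that variation may be technical.

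The naive state is that of the epiblast before implantation, and cultured stem cells hold it through a network of transcription factors that support each other's expression. The cytokine LIF acts through Stat3 on Tfcp2l1, Gbx2 and Klf4, Wnt signalling relieves repression of Esrrb and Tfcp2l1 by Tcf7l1, and these factors are lost as cells pass to the formative and primed states. Proline is known to move stem cells towards such later states. Most members bind DNA: Nanog and Gbx2 through a homeodomain, Esrrb and Nr5a2 as orphan nuclear receptors, Tbx3 through a T-box, Zfp42 (Rex1) and Prdm14 through zinc fingers, and Tfcp2l1 as a member of the CP2 family. Nr0b1 (Dax1) belongs to the nuclear receptors but lacks their usual DNA-binding domain and acts mainly as a corepressor, and Tcl1 is a cofactor of the kinase Akt rather than a transcription factor.

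The libraries held 5299432 to 15921283 counts, proline 1 being the largest. They were made with a 3′ end kit, which yields about 1 fragment per transcript, so values are given in CPM, counts scaled to a common library total, and were not divided by length. All 10 members passed the filter on low counts, which kept 13852 genes. Control 3 and budesonide 3 had the largest shares of tested genes at 0, with 6.57% and 8.43%, against 1.39% to 5.77% elsewhere. Differences were tested with edgeR's quasi-likelihood test over all 12 libraries, and a gene was called, or said to rise or fall, at a Benjamini-Hochberg adjusted p below 0.05 over all tested genes. Log2 changes are given with the standard error (SE), and intervals are 95% confidence intervals of the log2 change. In bulk samples fewer cells of a type and less RNA per cell cannot be told apart.

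Promoters are shown because most members moved together. They let the sequences upstream of Nanog, Zfp42 and Tfcp2l1, which moved, be set beside that of Gbx2. Gbx2 was not called in any comparison of the main test, though it was called under some other settings given below. RefSeq's table of GRCm38.p6 promoters matched 8 of the 10 members, all but Tbx3 and Prdm14, at 11 start sites. Each line gives the 250 bases before a start site, 5′ to 3′ on the gene's strand, with matches to the motifs searched in capitals.
Nanog (chr6:122707239-122707488, strand +): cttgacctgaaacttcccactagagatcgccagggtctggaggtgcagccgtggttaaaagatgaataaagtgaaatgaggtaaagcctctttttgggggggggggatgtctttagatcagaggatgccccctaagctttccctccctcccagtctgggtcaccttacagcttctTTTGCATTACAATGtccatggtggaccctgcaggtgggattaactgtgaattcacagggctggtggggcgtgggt
Zfp42 (chr8:43307010-43307259, strand −): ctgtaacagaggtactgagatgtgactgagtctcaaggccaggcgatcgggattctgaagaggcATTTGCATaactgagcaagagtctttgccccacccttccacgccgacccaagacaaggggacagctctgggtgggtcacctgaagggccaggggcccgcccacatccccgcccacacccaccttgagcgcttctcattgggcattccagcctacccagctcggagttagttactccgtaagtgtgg
Tfcp2l1 (chr1:118627695-118627944, strand +): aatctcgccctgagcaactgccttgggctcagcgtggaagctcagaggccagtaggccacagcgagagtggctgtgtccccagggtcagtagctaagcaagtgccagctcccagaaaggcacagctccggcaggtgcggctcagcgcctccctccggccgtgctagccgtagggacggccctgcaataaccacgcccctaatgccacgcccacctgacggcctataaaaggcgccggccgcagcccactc
Gbx2 (chr1:89931177-89931426, strand −): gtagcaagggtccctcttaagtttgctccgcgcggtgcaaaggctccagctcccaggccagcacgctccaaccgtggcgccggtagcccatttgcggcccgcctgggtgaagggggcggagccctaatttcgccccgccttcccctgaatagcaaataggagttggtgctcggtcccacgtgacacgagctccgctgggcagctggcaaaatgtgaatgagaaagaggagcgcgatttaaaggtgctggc
The capitals in Zfp42 are the octamer ATTTGCAT, the site of POU factors such as Pou5f1, which 1.60% of all 32851 promoters in the table held in this window on either strand. The capitals in Nanog are the joined octamer and Sox motif, whose single free base lies between its parts, which was added to the search after this sequence had been seen, so its presence here is no finding. No other gene's promoter in the table held it, and the overlapping windows of Nanog's 2 start sites share this 1 site. The other motifs searched on both strands had no match in the windows of the members: TCAAGGTCA, the site of Esrrb and Nr5a2 (0.387% of all promoters), CTTTGAT for TCF factors (3.21%), TTCCNGGAA for STAT factors (0.913%) and the palindromic glucocorticoid response element (0.387%). A match is a description of the letters and not a measured binding site.

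**Figure D1:**
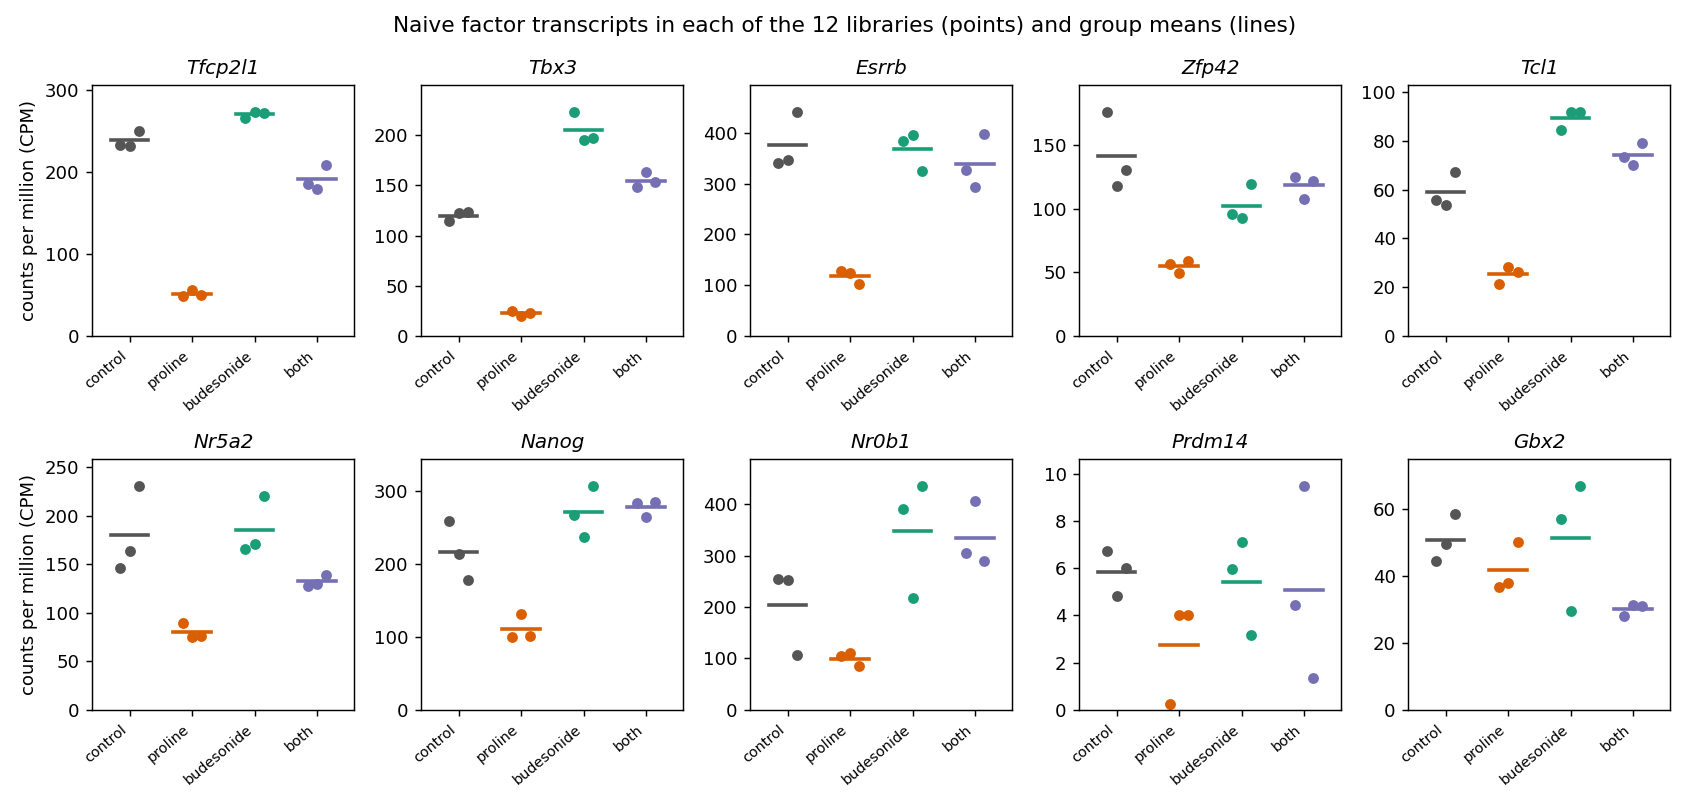
CPM (vertical axis, from 0, 1 scale per gene) of the 10 members in each library (points), by group (horizontal axis), with group means as lines. The proline libraries lie lowest for 9 genes by group mean, and Gbx2 has its lowest mean with both compounds, at 30.2 CPM.

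For scale, the libraries did not overlap in 26.7% of all tested genes between proline and control, in 23.7% between budesonide and control, in 31.9% between both and proline, in 28.4% between both and control and in 19.4% between both and budesonide. Tfcp2l1, which acts downstream of Stat3, was tightly grouped. Its level was 233, 232 and 250 CPM in control 1 to 3, 48.5, 55.7 and 50.2 with proline, 266, 273 and 272 with budesonide, and 185, 179 and 208 with both. No group overlapped another, in the order proline, both, control, budesonide. Of these neighbours, proline and both differed (called), while both against control (log2 −0.32 ± 0.12, adjusted p = 0.0992) and budesonide against control (0.18 ± 0.12, adjusted p = 0.415) were not called.

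Tbx3, a T-box repressor that supports the naive state, had the largest ratio between its highest and lowest group means. Control libraries held 114, 122 and 123 CPM, proline libraries 24.9, 20.4 and 23.5, budesonide libraries 223, 195 and 197, and libraries of both 148, 163 and 153. Again no groups overlapped, but the order differed from that of Tfcp2l1: proline, control, both, budesonide. The neighbours both and control differed by 0.37 ± 0.13 and were not called (adjusted p = 0.0923), nor were both and budesonide (−0.41 ± 0.13, adjusted p = 0.134). The antisense gene Tbx3os1 overlaps Tbx3 and held 0 to 21 counts per library. Strand handling is not given in the sources used here, so reads of such a pair cannot be told apart.

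Among the nuclear receptors, Esrrb, a central activator of the naive network, stood at 341, 346 and 441 CPM in control, 128, 124 and 103 with proline, 383, 395 and 324 with budesonide and 327, 293 and 398 with both. Proline alone set a group apart, and the other groups overlapped each other. Nr5a2, which binds regulatory DNA of Pou5f1 and Nanog, was at 146, 164 and 231 CPM in control, 89.5, 74.6 and 75.6 with proline, 166, 171 and 220 with budesonide and 128, 130 and 139 with both. Here the libraries of both compounds lay between those of proline and those of control without overlap.

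Nr0b1, a corepressor that binds Pou5f1 and Nr5a2, varied widely between replicates. It stood at 254, 253 and 106 CPM in control, 104, 111 and 84.6 with proline, 391, 218 and 436 with budesonide and 305, 407 and 289 with both. Control 3 fell within the range of the proline libraries, and the coefficient of variation in control was 41.6%, against 4.30% for Tfcp2l1. The proline and control groups therefore overlapped for this gene, and the libraries of both lay above those of control and of proline.

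Nanog, the homeodomain factor at the centre of self-renewal, was at 260, 214 and 178 CPM in control, 100, 131 and 102 with proline, 268, 238 and 308 with budesonide and 284, 265 and 285 with both. The proline group lay below all others, both lay just above control, and budesonide overlapped control and both. Zfp42, the classic marker of the naive state known as Rex1, was at 176, 118 and 130 CPM in control, 56.7, 49.6 and 59.2 with proline, 95.5, 93.0 and 119 with budesonide and 125, 108 and 122 with both. The proline libraries of Zfp42 lay below all others, and its other groups overlapped each other. For Zfp42 control had the highest mean, unlike Nanog, whose mean was highest with both.

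Tcl1, the Akt cofactor, was at 55.8, 53.6 and 67.2 CPM in control, 21.4, 28.3 and 26.3 with proline, 84.5, 91.8 and 91.8 with budesonide and 73.5, 70.0 and 79.0 with both. All groups lay apart, in the same order as those of Tbx3. Its neighbouring relatives Tcl1b1 to Tcl1b5 had no counts in any library.

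The remaining members, Gbx2 and Prdm14, were not called in any comparison of the main edgeR test. Gbx2, a homeobox gene downstream of LIF, was at 44.5, 49.7 and 58.4 CPM in control, 36.8, 37.9 and 50.3 with proline, 57.1, 29.6 and 67.0 with budesonide and 28.1, 31.4 and 31.1 with both. The lowest group was that of both compounds, which overlapped budesonide through budesonide 2 alone. The gene D130058E05Rik overlaps Gbx2 on the other strand and held 45 to 131 counts per library, against 183 to 562 for Gbx2. Prdm14, a repressor of Dnmt3b and of FGF signalling, was near the detection limit, with 41, 25 and 39 counts in control, 4, 27 and 29 with proline, 53, 46 and 24 with budesonide and 29, 65 and 10 with both. In CPM these were 6.71, 4.82 and 6.01, then 0.262, 4 and 4.03, then 5.98, 7.13 and 3.16, and 4.46, 9.50 and 1.33. All proline libraries lay below all control libraries, proline 1 by far the lowest although it was the deepest library, and the budesonide and both groups overlapped every other group.

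The first comparison asked what proline did to these genes. In proline-treated cells 8 of the 10 members fell, and Gbx2 and Prdm14 were not called. Tbx3 had the largest fall, from 120 ± 5.17 down to 22.9 ± 2.27 CPM (SD, n = 3), which is −2.38 ± 0.14 in log2 or 5.20-fold (edgeR adjusted p = 7.09e-11). Tfcp2l1 followed at −2.21 ± 0.12, and by p-value these genes ranked 4 and 3 of the 13852 tested. Of all tested genes 7.88% were called, 3.17% higher and 4.71% lower, and 14.0% had proline libraries that all lay below those of control, as 8 members did, Prdm14 among them.

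A middle group of falls came from Esrrb (−1.67 ± 0.14), Zfp42 (−1.36 ± 0.16), Tcl1 (−1.23 ± 0.17) and Nr5a2 (−1.17 ± 0.16), with adjusted p from 3.68e-08 to 4.47e-05. Nanog fell by 0.97 on the log2 scale (SE 0.15, adjusted p = 9.62e-05) and Nr0b1 by 1.03 (SE 0.25, adjusted p = 0.0106). Gbx2 changed by −0.29 with an interval of −0.79 to 0.21, so that a fall of the size of Tcl1 lay outside it. For Prdm14 the interval ran from −2.74 to 0.51 and held both no change and the change of Tbx3. The call of Nr0b1 ended without control 1 (adjusted p = 0.0637), control 2 (0.0678) or proline 3 (0.0595) and with DESeq2 (0.0529), and the log2 change was −1.35 without control 3. Over all alternatives its adjusted p ran from 1.67e-11 to 0.307.

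**Figure D2:**
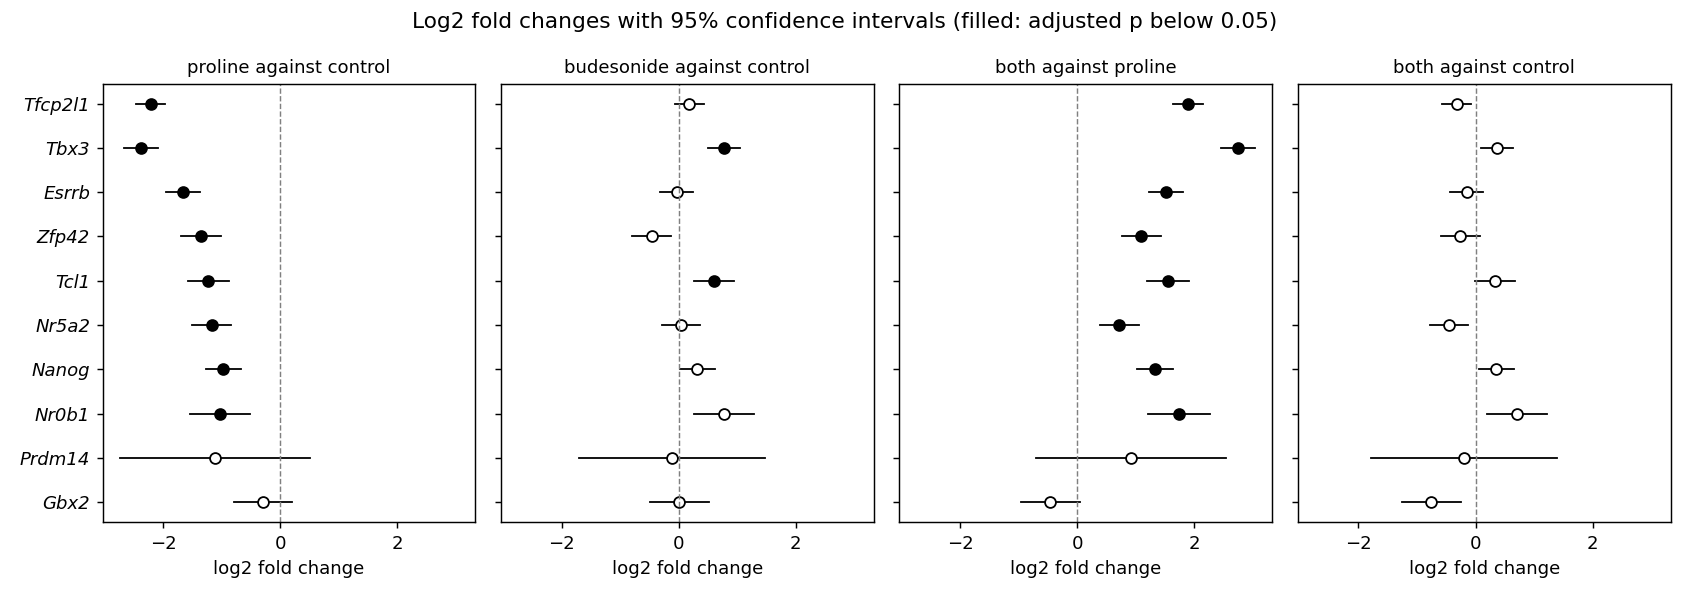
Log2 fold changes (horizontal axis) of the 10 members (rows) in 4 comparisons, with 95% confidence intervals, filled where the adjusted p was below 0.05. In proline against control 8 genes are filled on the left, in both against proline 8 are filled on the right, and in both against control none is filled.

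The next comparison set cells given both compounds against cells given proline alone. With both compounds 8 of the 10 members were higher, and Gbx2 and Prdm14 were not called. The proline libraries also serve in the comparison with control, so a low value there enters both. Of all tested genes 10.1% were called, 5.83% higher and 4.27% lower, and 16.3% had all libraries of both above those of proline.

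Tbx3 rose by 2.75 ± 0.14, or 6.71-fold (adjusted p = 1.53e-11), and had the smallest p of the 13852 genes. Tfcp2l1 (1.89 ± 0.12), Nr0b1 (1.74 ± 0.25), Tcl1 (1.56 ± 0.17) and Esrrb (1.52 ± 0.14) came next. Nanog rose by 1.33 ± 0.15 and Zfp42 by 1.10 ± 0.16, while Nr5a2 had the smallest called rise at 0.72 ± 0.16 (adjusted p = 0.00448). Gbx2 changed the other way, by −0.46 with an interval of −0.96 to 0.04, and the libraries of both lay below those of proline without overlap. The Nr5a2 call ended with offsets for transcript length and GC content (log2 0.59, adjusted p = 0.0594; range over alternatives 0.000142 to 0.715).

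Whether proline acted differently in the presence of budesonide was measured by the interaction, the proline effect with budesonide (both minus budesonide) less the effect without it (proline minus control). It was positive and called for 5 of the 10 members, where 0.469% of all tested genes were called, 0.411% positive and 0.0578% negative. The genes were Tbx3 (1.97 ± 0.19) and Tfcp2l1 (1.71 ± 0.17), each with adjusted p = 3.82e-06 and ranks of 1 and 2 of all genes by p-value, Zfp42 (1.56 ± 0.23, adjusted p = 0.000949), Esrrb (1.55 ± 0.19, adjusted p = 0.000162) and Nanog (1.01 ± 0.20, adjusted p = 0.0173). Tcl1 (0.96 ± 0.24, adjusted p = 0.0788), Nr0b1 (0.97 ± 0.35, adjusted p = 0.367) and Nr5a2 (0.68 ± 0.23, adjusted p = 0.299) had positive values that were not called. DESeq2 did call Tcl1 (adjusted p = 0.00831; range 0.00831 to 1).

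The direct values show how much of the fall was left. Esrrb changed with proline by −0.11 ± 0.14 when budesonide was present, against −1.67 ± 0.14 without it, and these comparisons share no library. Nanog changed by 0.04 ± 0.14 and Zfp42 by 0.21 ± 0.16 with budesonide present. Tfcp2l1 was the member that still fell, by 0.51 on the log2 scale (SE 0.12, adjusted p = 0.0269, 1.42-fold), where 1.47% of all genes were called, 0.874% higher and 0.592% lower. Tbx3 (−0.41 ± 0.13, adjusted p = 0.134), Nr5a2 (−0.49 ± 0.16, adjusted p = 0.143) and Gbx2 (−0.76 ± 0.24, adjusted p = 0.137) were lower in value and not called.

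As a share of the effect without budesonide, the effect with it was 41.9% for Nr5a2, 22.9% for Tfcp2l1, 21.9% for Tcl1, 17.1% for Tbx3, 6.83% for Esrrb, 6.15% for Nr0b1, −3.70% for Nanog and −15.1% for Zfp42. The median over these 8 members was 12%. Its SD of 0.44 varied only the 3 libraries of both, with the means of the other groups held fixed, and so understates the spread. For single members that SD ran from 2.95 (Tbx3) to 28.6 (Nr0b1). The median ran from 9.66% to 19.1% with 1 library left out. It was 20.9% with length and GC offsets, 18.6% without budesonide 2 and 19.1% without both 2. Nanog's interaction was not called without control 1 (adjusted p = 0.0726), proline 1 (0.0730), proline 3 (0.0666), budesonide 2 (0.0579) or both 1 (0.0548), nor with the offsets (0.0703; range 0.00018 to 1), and that of Nr0b1 was called without control 3 (1.28, adjusted p = 0.0177; range 0.000286 to 1). The Tfcp2l1 call of both against budesonide ended without any of budesonide 1 (0.0614), budesonide 2 (0.0764), budesonide 3 (0.0824), both 1 (0.137) or both 2 (0.133) and with the offsets (0.116; range 0.000573 to 1), and Gbx2 was called without budesonide 2 (−1.02, adjusted p = 0.0207; range 0.0207 to 1).

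**Figure D3:**
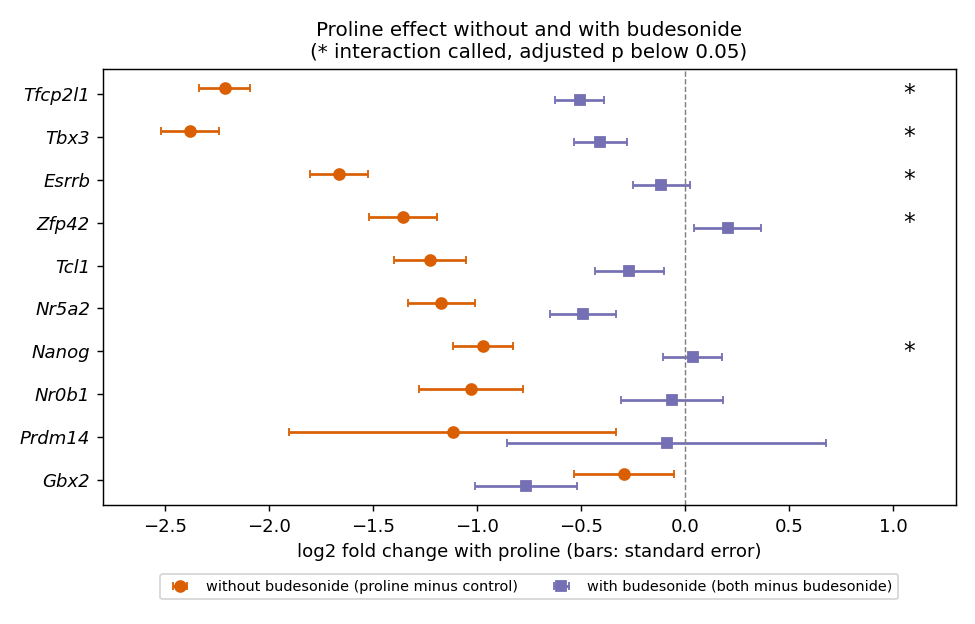
Log2 change of the 10 members (rows) with proline, without budesonide (circles) and with it (squares), with bars of 1 standard error and asterisks for a called interaction. The circles of 8 genes lie between −2.38 and −0.97, and the squares of these genes lie between −0.51 and 0.21.

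Cells given both compounds were then set against untreated cells. No member was called in edgeR (0 of 10), where 7.17% of all genes were called, 3.34% higher and 3.83% lower. At an unadjusted p below 0.05 there were 6 members and 20.0% of all genes, and DESeq2 called 3 members and limma-voom 1. Means leaned in both directions. Nr0b1 (log2 0.71, interval 0.20 to 1.22), Tbx3 (0.37, 0.10 to 0.64) and Nanog (0.36, 0.06 to 0.65) were above control in value. Gbx2 (−0.75, interval −1.26 to −0.25), Nr5a2 (−0.45, −0.78 to −0.12) and Tfcp2l1 (−0.32, −0.56 to −0.08) were below it. Esrrb had an interval of −0.43 to 0.14 and Zfp42 of −0.59 to 0.07, so a loss of the size seen with proline alone lay outside both.

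Some of these values passed the threshold under other settings. DESeq2 called Tfcp2l1 (adjusted p = 0.0324; range over alternatives 0.0324 to 1), Gbx2 (0.0357; range 0.0226 to 0.96) and Tbx3 (0.0369; range 0.0369 to 1). Nr0b1 was called by limma-voom (0.0432; range 2.32e-05 to 1) and, with Gbx2, when no filter was applied. Leaving out control 1 led to a call of Nr5a2 (−0.58, adjusted p = 0.0423; range 0.0423 to 1), leaving out budesonide 2 to calls of Gbx2 (0.0254) and Nr0b1 (0.0465), and leaving out budesonide 3 to a call of Gbx2 (0.0409).

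Budesonide alone raised 2 of the 10 members above control, where 6.51% of all genes were called, 2.51% higher and 4% lower. Tbx3 rose to 205 ± 15.6 CPM (SD, n = 3), that is by 0.78 ± 0.13 on the log2 scale (adjusted p = 0.000661), and Tcl1 from 58.9 ± 7.33 to 89.3 ± 4.22 CPM, a change of 0.60 ± 0.17 (adjusted p = 0.0306). All budesonide libraries lay above all control libraries for these genes and for Tfcp2l1, as for 11.5% of all genes. Nr0b1 (0.77 ± 0.25, adjusted p = 0.0620) and Nanog (0.32 ± 0.14, adjusted p = 0.210) had higher means and were not called, and Zfp42 had a lower one (−0.46 ± 0.16, adjusted p = 0.0880). Esrrb, Nr5a2 and Gbx2 had log2 changes of −0.03, 0.04 and 0.01, with intervals of −0.31 to 0.25, −0.29 to 0.37 and −0.49 to 0.51.

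The Tcl1 call ended without control 1 (adjusted p = 0.110), control 2 (0.129), budesonide 1 (0.0501), budesonide 2 (0.0818) or budesonide 3 (0.0770) and with the 6 libraries alone (0.0632; range over alternatives 0.00735 to 1). DESeq2 and limma-voom each called 3 members, where DESeq2 added Zfp42 (adjusted p = 0.0497) and limma-voom Nr0b1 (0.0317). Nr0b1 was also called with the offsets (0.0290) and with no filter (3.15e-06). It was called without budesonide 2 (1.01, adjusted p = 0.0126), control 1 (0.0394) or control 2 (0.0461; range 3.15e-06 to 1), and Zfp42 without control 3 and budesonide 3 together (−0.64, adjusted p = 0.0443; range 0.0443 to 1).

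The wider network gave the setting for these values. Of 18 other tested naive network genes 9 fell with proline and none rose, where 4.71% of all genes fell and 3.17% rose. The median log2 change was −0.65, against −1.20 over the 10 members and −0.01 over all genes. Tet2, which oxidises methylcytosine, fell by 1.70 on the log2 scale (SE 0.20), Klf4 by 1.47 (SE 0.15) and the germline gene Morc1 by 1.14 (SE 0.16). Klf2, a Kruppel-like factor as is Klf4, fell as well, with an interval of −1.23 to −0.78. With both compounds 9 were higher than with proline alone, as were 5.83% of all genes. The median was 0.80, against 1.42 for the members and 0.02 for all genes. Klf2 rose by 1.72 ± 0.11 there, Tet2 by 1.56 ± 0.20 and the adhesion molecule Pecam1 by 1.55 ± 0.23. Klf2 and Klf4 also had a called interaction, of 0.78 ± 0.15 and 1.39 ± 0.21. Stat3, the effector of LIF, was level, at −0.06 ± 0.17 with proline and 0.23 ± 0.17 with both against proline (adjusted p = 0.904 and 0.467).

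Core pluripotency genes, which both naive and primed cells express, did not follow the members. Of 10, 1 rose with proline, the RNA-binding protein Lin28a by 0.68 ± 0.12, and none fell, with a median of 0.12. The share called is close to the 7.88% of all genes. Sox2 changed by −0.20 ± 0.11 (adjusted p = 0.328) and Pou5f1 by 0.02 ± 0.25 (adjusted p = 0.983). Pou5f1 was at 26.9 to 30.3 CPM by group mean and has near-identical pseudogenes, so its count is uncertain. With both against proline 3 fell, where 4.27% of all genes did. They were Utf1 by 0.85 (SE 0.12), the Nodal co-receptor Tdgf1 by 0.80 (SE 0.13) and Lin28a by 0.55 (SE 0.12).

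Among 20 genes of exit from the naive state, 8 rose with proline, none fell and 12 were not called (median 0.65). Of all genes 3.17% rose and 4.71% fell. Fgf5, a growth factor gene of the primed epiblast, went from 0.0514 ± 0.089 CPM in control, where it had 1 count in the 3 libraries, to 10.3 ± 1.91 CPM (SD, n = 3; edgeR adjusted p = 0.000834). The POU factor Pou3f1 rose by 3.15 ± 0.16, the kinase Pim2 by 3.00 ± 0.15 and Otx2, which drives exit, by 1.22 ± 0.14. With both compounds 9 of the exit genes were lower than with proline, as were 4.27% of all genes. Pim2 changed by −2.22 ± 0.14, Pou3f1 by −1.76 ± 0.15 and the methyltransferase gene Dnmt3b by −1.47 ± 0.11. Against control, edgeR called 5 of the 20 higher with both and 1 lower (7.17% of all genes were called). Pou3f1 was at 1.40 ± 0.15 there and Zic2, a zinc finger factor that was not called with proline alone, at 2.15 ± 0.62. Tcf7l1, the repressor of Esrrb and Tfcp2l1 named above, rose above control in each treated group, by 0.74 ± 0.18 under proline, 0.67 ± 0.18 under budesonide and 1.10 ± 0.18 under both. It was the 1 exit gene called higher with budesonide alone, while 4 were called lower (median of the list −0.195). Of all genes 2.51% were called higher and 4% lower there. Those 4 included Pim2 (−0.85 ± 0.15) and Otx2 (−0.49 ± 0.14).

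**Figure D4:**
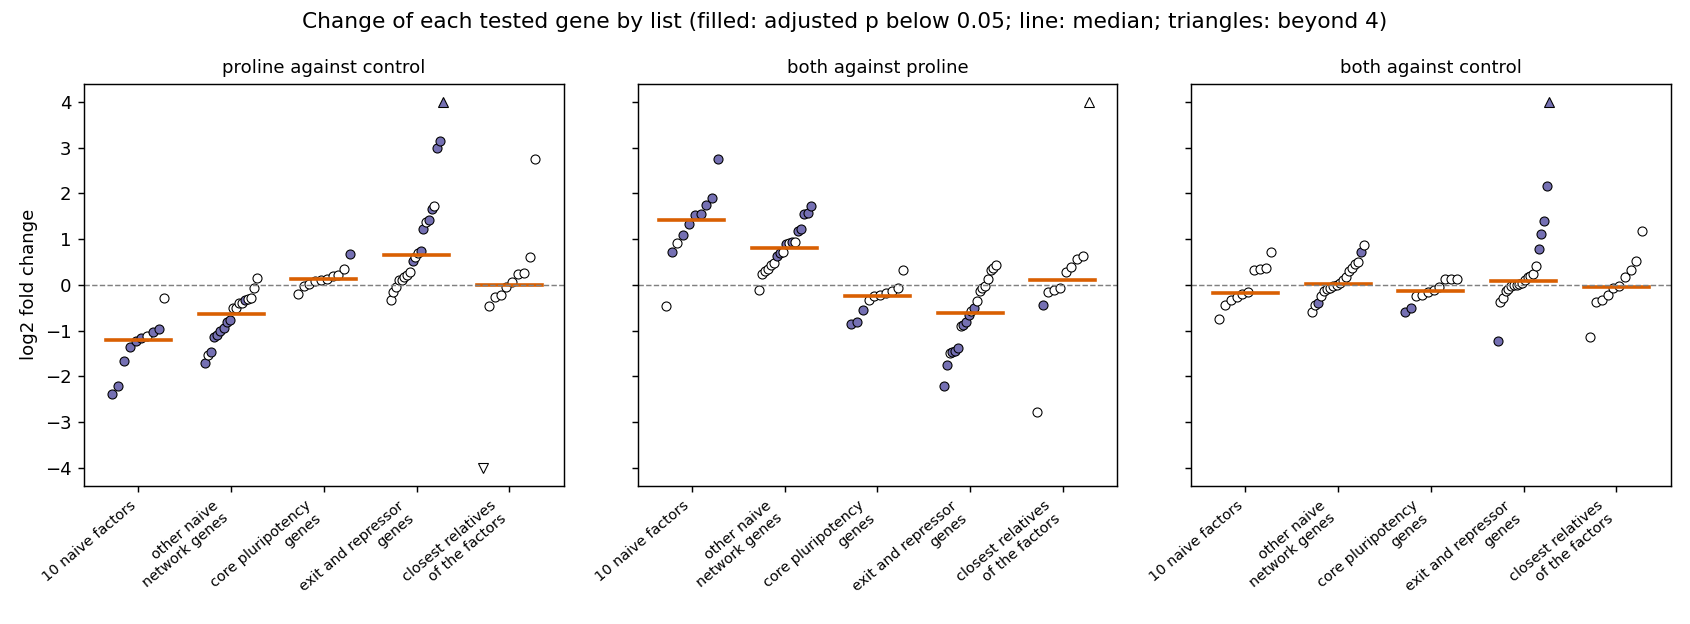
Log2 fold change (vertical axis) of each tested gene in 5 lists (horizontal axis) in 3 comparisons, filled where the adjusted p was below 0.05, with list medians as lines and values beyond 4 as triangles. The 10 naive factors have medians of −1.20 with proline, 1.42 in both against proline and −0.17 in both against control, and the exit genes have 0.65, −0.62 and 0.08.

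The closest relatives of the members were also listed, and 10 of 22 passed the filter. In edgeR 0 of 10 were called with proline (7.88% of all genes), with 1 at an unadjusted p below 0.05, 1 by DESeq2 and 0 by limma-voom. In both against proline 1 was called, Yy1, the relative of Zfp42, at −0.45 ± 0.12 (adjusted p = 0.0193), a share close to the 10.1% of all genes. Esrrg, Yy2 and Nr5a1 had no counts, and Esrra, a relative of Esrrb, was at 2.21 to 5 CPM by group mean. Tfcp2 and Ubp1, of the CP2 family of Tfcp2l1, stood at 5.39 to 8.67 and 32.4 to 40.6 CPM and were not called in any comparison.

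Markers of other cell types were low, with summed levels that moved with some groups. The 12 trophoblast markers summed to 81.3 to 91.4 CPM in control, 51.9 to 81.4 with proline, 138 to 177 with budesonide and 164 to 176 with both, so they were highest in the groups given budesonide. The defining marker Elf5 had 1 count in all libraries and Cdx2 was at 0.387 to 1.07 CPM by group mean. The keratins Krt8 and Krt18, with Tfap2c and Rhox6, carried most of the rise. Against control, edgeR called 2 of 11 tested higher with budesonide, Krt18 and Rhox6 (2.51% of all genes), and 3 with both (3.34%). In both against proline 4 were called higher (5.83%), and none was called lower in these 3 comparisons. With proline alone 1 of the 11 was called lower than control (4.71% of all genes) and none higher. It was Krt8 (log2 −2.165 ± 0.522, edgeR adjusted p = 0.00996). The proline libraries also serve in the comparison with both. The 12 primitive endoderm markers summed to 207 to 231 CPM in control and 234 to 256 with proline. They summed to 119 to 161 with budesonide and 158 to 178 with both. Most of it came from the laminin chain Lamb1, with Gata4 and Gata6 at 4.31 CPM or less by group mean. With proline 1 of 10 tested was called higher, Sox17 (log2 5.02 ± 1.52, edgeR adjusted p = 0.0442), and none lower, with a median of 1.18 (7.88% of all genes were called). Sox17 had 1 count in the control libraries, 65 in those of proline, 68 in those of budesonide and 32 in those of both. With budesonide 1 was called higher, again Sox17 (5.275 ± 1.53), and 1 lower, Lamb1 (−0.76 ± 0.13), where 6.51% of all genes were called. Primitive streak markers summed to 15.1 CPM or less and 2-cell-like markers to 20.0 or less in every library. Neuroectoderm markers summed to 45.1 to 92.3 CPM and were lowest with proline, most of it from the tubulin Tubb3 (44.5 ± 3.97 CPM in control and 23.6 ± 3.35 with proline). Pax6 (4.32 ± 1.34 and 9.82 ± 2.23 CPM) and Nes (3.55 ± 1.85 and 9.44 ± 2.28 CPM) had higher means with proline and were not called. Of the 4 tested markers 1 was called with proline, Tubb3, which fell (log2 −0.92 ± 0.19, edgeR adjusted p = 0.00285). The median log2 change of the 4 was 0.33. With both compounds the list summed to 74.8 to 92.3 CPM and Pax6 was at 22.2 ± 7.5 CPM. There 1 of the 4 was called higher than control (3.34% of all genes) and 1 higher than proline (5.83%), and none lower. Feeder fibroblast markers summed to 4.31 to 25.0 CPM and were highest with proline, with Postn and Lum at 0 counts. Thy1 (8.12 ± 1.19 CPM in control and 11.9 ± 5.27 with proline) and Dcn (1.03 ± 0.89 and 5.69 ± 2.42) had higher means with proline. Col1a1 had a lower one (2.72 ± 2.29 and 0.293 ± 0.393). Of 5 tested feeder markers 0 were called with proline, where 7.88% of all genes were called. With both compounds 1 of the 5 was called lower than proline (4.27% of all genes) and 1 lower than control (3.83%), and none higher. The part of these cell types in the values of the members was not tested.

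The pattern over the 12 libraries was described by Pearson correlation of log2 CPM, and the points fall into the 4 groups, so that r mostly follows differences between groups. Each member was set against the mean of the other members. Tfcp2l1 had r = 0.975, Tbx3 0.958, Tcl1 0.947, Esrrb 0.921 and Nanog 0.915, while Prdm14 had 0.473 and Gbx2 0.082. Among all other genes with at least 10 CPM, those most like the mean of the members were Ahnak2 (0.981), the ephrin receptor Epha4 (0.975), the acetyltransferase gene Kat6b (0.974), the growth factor gene Pdgfa (0.973) and the junction protein Jam2 (0.968). The gene nearest to Esrrb was Tfcp2l1 (0.975), the nearest to Tbx3 was Klf5 (0.989), a Kruppel-like factor of the naive network, and the nearest to Tcl1 was the galectin Lgals3 (0.981). For Nanog it was the basement membrane gene Nid1 (0.985) and for Tfcp2l1 Pdgfa (0.990).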

How the data were processed

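Libraries of polyadenylated RNA were made with a 3′ end kit (QuantSeq), per the labels' protocols. Per the submitters' processing notes the build was GRCm39 and the tools were STAR 2.7.5c, featureCounts 2.0, cutadapt 2.5, bcl2fastq and DESeq2, listed without roles. Not given in the sources used here are the annotation, the strand setting and how reads with several matches were counted. The authors deposited whole-number counts per gene symbol, which were tested. A second deposited table of normalised values was not used.

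Low genes were removed by filterByExpr (at least 10 counts, total at least 15), and libraries were scaled by TMM. In R 4.3.3, edgeR 4.0.16 (glmQLFit, glmQLFTest, two-sided) was fitted with 1 coefficient per group, with 8 residual degrees of freedom and 6 comparisons. The SE was obtained by dividing the size of the log2 change by √F, and log2 changes use a prior count of 0.125. Correlations used a prior count of 2. The code was tested on simulated data. Alternatives used DESeq2 1.42.0, limma 3.58.1 and, for length and GC offsets from GENCODE transcripts (97.7% of tested genes matched), mgcv 1.9.3. Replicate numbers come from the titles.

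The members and lists were chosen with earlier results of these data known. All 10 members are named. From other lists, the called genes with the 3 largest absolute changes in a comparison could be named, and Pou5f1, Sox2, Klf2, Klf4, Otx2, Pou3f1, Tcf7l1 and Stat3 whatever their values. Other list genes that are named (Krt18, Pax6, Nes, Esrrg, Yy2, Nr5a1, Tcl1b1 to Tcl1b5, Elf5, Cdx2, Gata4, Gata6, Lamb1, Postn, Lum, Thy1, Dcn, Col1a1, Esrra, Tfcp2, Ubp1) were chosen after their values were seen.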

Additional observations from a re-analysis of the deposited data

Results flagged for a closer look

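The proline effect differed between cells without and with budesonide in 5 of the 10 members, by edgeR's interaction test, where 0.469% of all tested genes were called. The difference in log2 change, the effect with budesonide minus the effect without it, was 1.97 for Tbx3, 1.71 for Tfcp2l1, 1.56 for Zfp42, 1.55 for Esrrb and 1.01 for Nanog (adjusted p = 3.82e-06, 3.82e-06, 0.000949, 0.000162 and 0.0173). Nanog's interaction was no longer called in 7 of 21 alternatives. All libraries of proline lay below those of control for these 5 genes, as for 14% of all tested genes. The interaction uses those same libraries, so this is no separate evidence. Groups of 3 libraries are too small for a test of single outlying libraries.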

How the results depend on the processing

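Of 523 repeats of called member results under up to 22 alternatives each, 492 stayed called in the same direction, 31 were no longer called and none reversed. Of 786 repeats of uncalled results 26 were called and 26 changed sign without a call. The members called numbered 7 to 8 with proline, 8 in both against proline and 4 to 6 for the interaction when 1 library was left out, 1 to 2 for budesonide, 0 to 2 for both against control and 0 to 1 for both against budesonide. For budesonide the count went from 2 to 1 with only the libraries compared and to 0 in a test against a 1.5-fold change. In both against control it went from 0 to 2 with no filter, 3 with DESeq2, 1 with only the libraries compared and 1 with limma-voom. In both against budesonide it went from 1 to 2 with no filter and with DESeq2, and to 0 with length and GC offsets, with the 1.5-fold test and with the replicate block.

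Over all genes, counts with 1 library left out ran from 674 to 1245 for proline (1091 in all; 725 without control 1, 674 without proline 1, 711 without proline 3), 620 to 912 for budesonide (902), 836 to 1647 for both against proline (1399; 920 without proline 1, 836 without both 1, 870 without both 2), 535 to 1187 for both against control (993; 537 without both 1, 535 without both 2), 80 to 307 for both against budesonide (203; 307 without control 3, 135 without budesonide 1, 92 without budesonide 3 and 80, 102 and 82 without both 1, 2 or 3) and 44 to 89 for the interaction (65). The 1.5-fold test called 192, 24, 216, 83, 7 and 10 in that order. For budesonide 493 were called with only the 6 libraries and 575 without control 3 and budesonide 3 together. For both against budesonide 354 were called with no filter, 435 with DESeq2, 120 with only the libraries compared, 128 with the replicate block and 124 with offsets, and for the interaction 134 with no filter, 162 with DESeq2 and 32 with offsets.

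The median share of the proline effect left with budesonide (12%) was 12.4% with DESeq2's size factors and with DESeq2, 13.3% with the replicate block, 20.9% with offsets, 16.2% without control 3 and budesonide 3 together, and 9.66% to 19.1% with 1 library left out. Uncalled values that changed sign were, for budesonide, Esrrb (0.19 without control 3 and budesonide 3 together; −0.10 to 0.10 with 1 library left out), Nr5a2 (−0.065 with offsets; −0.10 to 0.26), Prdm14 (0.19 without control 3 and budesonide 3; −0.36 to 0.16) and Gbx2 (−0.031 with limma-voom, −0.019 with the replicate block, −0.11 without control 3 and budesonide 3; −0.22 to 0.28). In both against budesonide they were Nanog (−0.024 with offsets; −0.036 to 0.14), Nr0b1 (0.12 without control 3 and budesonide 3; −0.30 to 0.13) and Prdm14 (−0.92 to 0.37), and in both against control Prdm14 (−1.02 to 0.26). Causes were not tested. Same-numbered libraries of different groups showed no strong shared deviation. Of 18 pairs 0 had r over 0.1 (−0.077 to 0.053), and 1 of 12 libraries was closest to its own number. A weak shared effect could give the same values, so whether the numbers pair the samples is not settled. Prdm14 rests on 4 to 65 counts per library.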
